A study of Mus musculus with 15 samples.

Results

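The 37 genes described here encode lysosomal hydrolases, their cofactors and lysosomal membrane proteins. They were chosen by symbol from a list that covers 11 proteases and peptidases, 9 glycosidases including a lysozyme, 7 genes of lipid and sterol handling, 8 membrane proteins, and a pair of regulators, the secreted protein progranulin and the transcription factor Tfeb. All 37 were among the 55401 genes of the count files, and all 37 were among the 19536 genes kept for the test. The RNA came from the hippocampi of 15 females, with a library for each mouse. The study's methods give their age as 18 to 20 months, without saying whether at the start of treatment or at tissue collection. Its discussion gives a higher age where spine density is compared. Tg2576 mice, labelled Tg2576 +/+, carry human APP with the Swedish mutation under the hamster prion protein promoter, which is active in neurons. WT mice, labelled Tg2576 -/-, lack it. The groups compared were 4 WT vehicle mice, 4 WT DHA mice, 4 Tg2576 vehicle mice and 3 Tg2576 DHA mice. DHA, an omega-3 fatty acid, was given at 450 mg/kg for 5 weeks, and vehicle mice received the sesame oil that both treatments share.

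Lysosomes are acidic organelles in which proteases, glycosidases and lipid hydrolases break down material that arrives by endocytosis, phagocytosis and autophagy. Membrane glycoproteins line and protect the organelle, and Tfeb switches on many of its genes through E-box elements. In the brain every cell type has lysosomes, but microglia, the resident macrophages, carry a large phagocytic lysosomal compartment, and its protein Cd68 is used as a histological marker of phagocytic microglia around amyloid plaques.

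The promoters of several members are shown because they separate genes that carry a Tfeb-type element from genes that do not, and the measured differences are referred back to them. RefSeq promoter windows of 300 bases (250 before and 50 after the start, build GRCm38.p6) were found for 33 of the 37 genes. Ctsb, Ctsh, Asah1 and Npc1 had no entry. Capitals mark the motifs searched on both strands: the E-box CACGTG, the longer element TCACGTGA that contains it, and GAGGAAGT, a sequence bound by the myeloid factor PU.1, which reads ACTTCCTC on the opposite strand. Ctsd (chr7:142387778-142388077 on the minus strand) and Lamp1 (chr8:13158911-13159210 on the plus strand) hold E-boxes, Ctss (chr3:95526536-95526835 on the plus strand) and Gusb (chr5:130003000-130003299 on the minus strand) hold the GAGGAAGT sequence, and Cd68 (chr11:69666121-69666420 on the minus strand) holds no match in this window.
Ctsd: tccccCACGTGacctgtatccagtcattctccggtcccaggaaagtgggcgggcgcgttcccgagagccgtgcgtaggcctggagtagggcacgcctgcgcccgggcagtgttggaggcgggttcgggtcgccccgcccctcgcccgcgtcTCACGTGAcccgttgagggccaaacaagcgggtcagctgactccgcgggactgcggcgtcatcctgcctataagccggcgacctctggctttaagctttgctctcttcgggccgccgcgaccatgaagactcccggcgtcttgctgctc
Lamp1: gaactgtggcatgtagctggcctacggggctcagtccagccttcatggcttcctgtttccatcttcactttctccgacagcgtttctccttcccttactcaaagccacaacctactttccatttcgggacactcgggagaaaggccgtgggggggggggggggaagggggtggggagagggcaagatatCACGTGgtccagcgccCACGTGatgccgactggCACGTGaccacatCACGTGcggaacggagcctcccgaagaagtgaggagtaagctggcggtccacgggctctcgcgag
Ctss: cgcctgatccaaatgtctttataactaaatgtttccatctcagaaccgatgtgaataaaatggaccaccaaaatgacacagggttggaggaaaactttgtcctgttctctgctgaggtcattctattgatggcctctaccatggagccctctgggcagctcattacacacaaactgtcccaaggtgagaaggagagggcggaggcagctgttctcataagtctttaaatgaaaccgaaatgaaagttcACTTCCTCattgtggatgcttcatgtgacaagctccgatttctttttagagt
Gusb: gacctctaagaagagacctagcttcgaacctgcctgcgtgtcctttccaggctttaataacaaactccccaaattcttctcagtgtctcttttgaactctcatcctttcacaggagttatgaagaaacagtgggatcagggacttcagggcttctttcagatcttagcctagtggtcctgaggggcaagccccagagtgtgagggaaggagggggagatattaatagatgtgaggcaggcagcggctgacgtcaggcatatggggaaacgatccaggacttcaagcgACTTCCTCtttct
Cd68: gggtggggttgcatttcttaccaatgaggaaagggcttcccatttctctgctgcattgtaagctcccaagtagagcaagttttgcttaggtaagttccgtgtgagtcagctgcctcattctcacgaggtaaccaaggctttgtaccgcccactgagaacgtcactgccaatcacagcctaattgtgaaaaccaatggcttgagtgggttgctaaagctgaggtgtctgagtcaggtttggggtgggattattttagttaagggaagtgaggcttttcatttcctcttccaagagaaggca
Lamp1 has 4 E-boxes within 61 bases before its start. Ctsd has its TCACGTGA element 99 bases before the start, and the Ctss match begins 2 bases before the start. Among the 33 genes with a window, 12 held CACGTG (Ctsa, Ctsd, Ctsf, Ctsl, Lgmn, Gaa, Gla, Glb1, Naglu, Lamp1, Cln3 and Mcoln1), while 8.09% of all 27025 genes with a window did. The longer TCACGTGA was found in 5 (Ctsa, Ctsd, Gla, Cln3 and Mcoln1) against 1.12% of all genes, and GAGGAAGT in 4 (Ctsc, Ctss, Gla and Gusb) against 3.69%. These matches are descriptions of the letters in the window and not measured binding. Only the exact sequences were searched, so a gene without a match may still hold a variant of the element.

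Total counts ranged from 17372864 to 46596489 per mouse (median 25645977), and each of the 37 genes had at least 118 counts in every mouse. As a check of the genotype labels, App, to which reads of the human transgene can in part align, had 1700 ± 86.5 CPM in WT vehicle mice, 1640 ± 64.3 CPM in WT DHA mice, 2340 ± 221 CPM in Tg2576 vehicle mice (SD, n = 4 each) and 2540 ± 251 CPM in Tg2576 DHA mice (SD, n = 3), with no overlap between genotypes. Hippocampal neuron markers such as Camk2a were present in every mouse. Libraries stood apart in choroid plexus markers (Ttr, Kl, Clic6, Aqp1, Folr1 and Kcnj13), whose summed level ran from 61 to 5820 CPM over the 15 mice. All 3 Tg2576 DHA mice were at the high end (3100, 3290 and 5150 CPM), whereas only 1 of the 4 WT DHA mice was (5820 CPM, against 61, 148 and 350 CPM). Counts of calls that involve the Tg2576 DHA group are therefore also given with the log2 of this sum as a covariate, a setting added after the data were seen.

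Per length, the 37 genes spanned a wide range in WT vehicle mice. Psap, the precursor of the saposins that activate sphingolipid hydrolases, was the highest at 643 RPKM (counts scaled to library size and to exon length). Gaa, the glycogen-degrading acid alpha-glucosidase, followed at 95.9 RPKM, Lamp1 at 93.6 RPKM, and the cathepsins Ctsb and Ctsd at 85.6 RPKM each. The values of single mice overlapped among these 4 genes. RPKM used the full exon length, although reads on bases shared with other genes are left out of the count. The shared part was 34.4% for Ctsd, 12.8% for Ctsb, 9.31% for Lamp1 and 0% for Gaa, so the order of these 4 is uncertain. Of the genes known from microglia, Ctss was at 45.5, Lyz2 at 12.7, Laptm5 at 9.85 and Cd68 at 7.7 RPKM. The lowest were Ctsc (1.69), Ctsh (1.62) and Manba (1.38 RPKM).

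**Figure D1:**
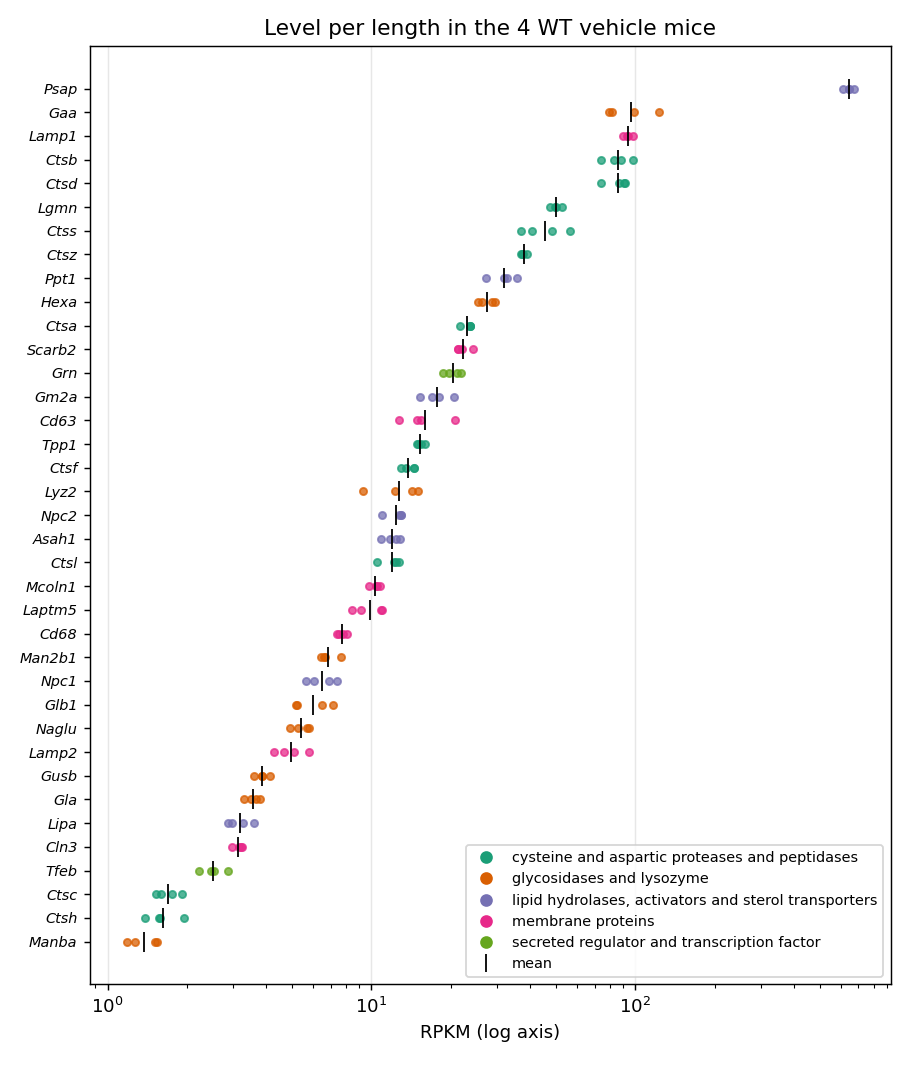
RPKM on a log axis for the 37 genes in the 4 WT vehicle mice, with a point per mouse, a vertical mark for the mean, and colours for the role of each gene. Psap at 643 RPKM lies far above Gaa at 95.9 RPKM, and Manba is the lowest at 1.38 RPKM.

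Which lysosomal genes differ between Tg2576 and WT mice was asked first over both treatments, as the mean of the genotype difference under vehicle and under DHA. Of the 37 genes, 11 were higher in Tg2576 mice at an unadjusted p under 0.01, the threshold the study used, and 0 were lower, by edgeR's quasi-likelihood test. Over all 19536 genes 1.94% were higher and 1.91% lower, so the share among the lysosomal genes, 29.7%, stood against a background of 1.94%. The 11 genes were Ctsd, Ctsl, Ctss, Ctsz, Gusb, Man2b1, Grn, Lamp2, Cd68, Laptm5 and Lyz2. At a Benjamini-Hochberg adjusted p under 0.05, 3 of the 37 remained (Cd68, Man2b1 and Ctss), where 0.205% of all genes did. In all, 31 of the 37 fitted differences were above 0, and their median log2 fold change was 0.18, where that of all tested genes was -0.0043. At an unadjusted p under 0.05, 20 of the 37 genes were higher and 0 lower, beside 11.6% of all genes in either direction. In bulk tissue, more cells of a type and more RNA of a gene per cell cannot be told apart.

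Each treatment was then taken alone; its mice also enter the comparison over both. Under vehicle 6 genes were higher and 0 lower (background 1.16% higher and 1.93% lower), namely Ctsh, Ctss, Gusb, Grn, Cd68 and Laptm5. Under DHA 7 genes were higher and 0 lower (background 1.06% and 0.686%), namely Ctsd, Ctss, Man2b1, Lamp2, Cd68, Laptm5 and Lyz2. None of the 37 had an adjusted p under 0.05 in either treatment alone, the smallest being 0.162 for Cd68 under vehicle and 0.0739 for Man2b1 under DHA (edgeR's quasi-likelihood test with Benjamini-Hochberg adjustment). DESeq2 gave 4 such genes under vehicle (Gusb, Grn, Cd68 and Laptm5) and 4 under DHA (Ctss, Man2b1, Cd68 and Lyz2), and limma-voom 0 in each. Under DHA there was 1 without TMM factors (Man2b1) and 1 without the filter (Cd68), and without Tg2576 vehicle mouse 1 Cd68 had an adjusted p under 0.05 in each treatment. Under DHA the call of Laptm5 held in 11 and that of Ctsd in 17 of the 24 alternatives. Where groups are said below not to overlap within 1 treatment or genotype, the share over all genes is not given. Such a pattern describes the mice and is not read as a result about a gene. Under DHA that pattern also held for Ctsb, Asah1 and Scarb2, and under vehicle for Lyz2, none of them called there. The smallest p that an exact permutation test allows with these groups is 0.0286 under vehicle and 0.0571 under DHA. With the choroid plexus covariate the counts were 8 over both treatments, 7 under vehicle (among them Npc1, which was lower) and 4 under DHA, where Ctss, Man2b1, Cd68 and Lyz2 were called. Their log2 fold changes under DHA with the covariate were 0.81, 0.56, 1.20 and 1.04. The balance of calls over all genes depended on library scaling: without TMM factors 540 genes were higher and 206 lower over both treatments (379 and 374 with them), 303 and 269 under vehicle (226 and 378), and 271 and 72 under DHA (208 and 134). Without TMM factors the same 11 lysosomal genes were called over both treatments, with a median log2 fold change of 0.21 beside 0.03 for all genes.

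**Figure D2:**
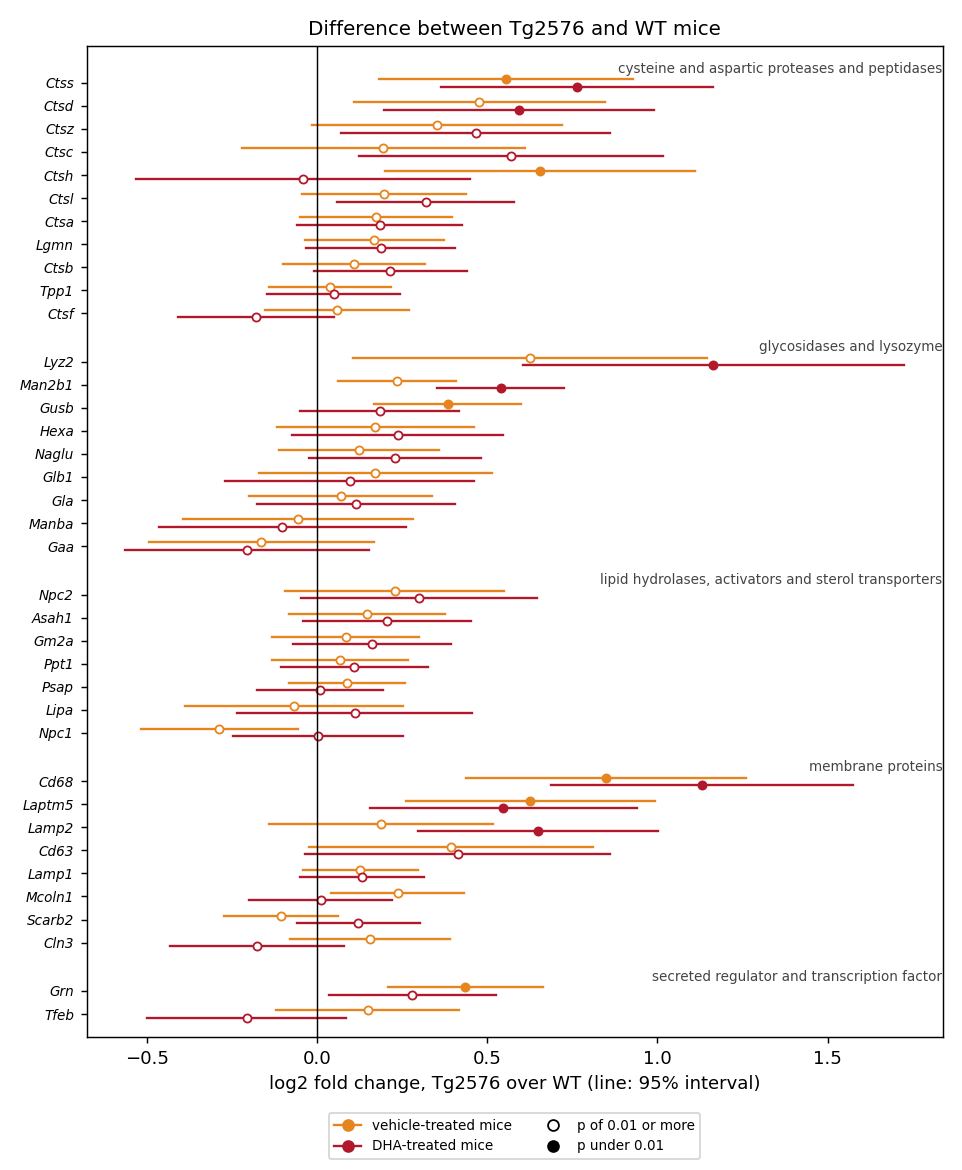
Log2 fold change of Tg2576 over WT mice for each of the 37 genes, under vehicle (orange) and under DHA (red), with 95% intervals, grouped by role and ordered within a group by the mean of both; filled points have an unadjusted p under 0.01. Cd68 (0.85 and 1.13), Lyz2 (0.63 and 1.16) and Ctss (0.56 and 0.76) have the largest mean of both, and most lipid and sterol genes lie near 0.

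Among the proteases and peptidases, 4 of 11 were higher in Tg2576 mice over both treatments, 0 were lower, and the median log2 fold change was 0.26. The strongest was Ctss (ENSMUSG00000038642.10, chr3:95526786-95556403), a cysteine protease that stays active at neutral pH and trims the invariant chain in antigen-presenting cells. Its levels were 55.2, 65.7, 49.9 and 76.5 CPM in the WT vehicle mice, 44.6, 55, 63.4 and 68.1 CPM in the WT DHA mice, 81.3, 93.3, 106 and 82.9 CPM in the Tg2576 vehicle mice and 94.8, 70.5 and 129 CPM in the Tg2576 DHA mice. Every Tg2576 mouse exceeded every WT mouse within its own treatment, and over both treatments the lowest Tg2576 mouse (70.5 CPM) lay below the highest WT mouse (76.5 CPM). The difference was 0.66 ± 0.13 (log2 fold change ± SE), a 1.58-fold higher level (95% interval 1.31 to 1.91), with an adjusted p of 0.0492 by edgeR's quasi-likelihood test. The adjusted p of Ctss was not under 0.05 with limma-voom, without the filter or without the robust option. Nor was it with the replicate block, with the choroid plexus covariate or without most single mice. In an exact permutation test on log2 CPM with genotype labels exchanged within each treatment, its p was 0.000816, the smallest that the 2450 regroupings allow.

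Ctsd (ENSMUSG00000007891.16, chr7:142375911-142388038), the main aspartic protease of the lysosome and the gene with the TCACGTGA element printed above, was 1.45-fold higher (95% interval 1.2 to 1.75, log2 fold change 0.53 ± 0.13 SE, adjusted p = 0.102 by edgeR's quasi-likelihood test). Its levels were 204, 173, 215 and 213 CPM in the WT vehicle mice, 170, 185, 243 and 242 CPM in the WT DHA mice, 200, 328, 303 and 290 CPM in the Tg2576 vehicle mice and 394, 225 and 332 CPM in the Tg2576 DHA mice. Tg2576 vehicle mouse 1 (200 CPM) and Tg2576 DHA mouse 2 (225 CPM) lay within the WT range, and the other 5 Tg2576 mice lay above it. Of its annotated exon bases, 34.4% are shared with the overlapping model Gm49369, and reads there are left out of the count. Ctsz, a carboxypeptidase, was 1.33-fold higher (1.1 to 1.6), with 54.3 ± 1.31 CPM in WT vehicle, 47.1 ± 8.93 in WT DHA, 69.3 ± 13.3 in Tg2576 vehicle (SD, n = 4 each) and 65.2 ± 18.9 in Tg2576 DHA mice (SD, n = 3). Ctsl, a cysteine endopeptidase, was 1.2-fold higher (1.06 to 1.35), with 26.8% of its exon bases shared with other models. The calls of Ctsz and Ctsl were the least stable of the 11. Ctsz was lost without any of 7 mice in turn and Ctsl without any of 8, both were lost with the choroid plexus covariate, and Ctsl also with the replicate block. The exact permutation p over both treatments was 0.0359 for Ctsz, 0.0155 for Ctsl and 0.0098 for Ctsd.

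Ctsh, an aminopeptidase, was called under vehicle, where its levels were 7.13, 6.24, 7.06 and 8.73 CPM in WT and 6.7, 13.3, 13.7 and 12.2 CPM in Tg2576 mice. Tg2576 vehicle mouse 1 lay among the WT mice and the other 3 lay above them. The log2 fold change was 0.66 ± 0.22 (SE, adjusted p = 0.304) in these mice and -0.04 ± 0.23 in the DHA mice (adjusted p = 0.985 by edgeR's quasi-likelihood test). The difference of these effects had an adjusted p of 0.845 by the same test, and the exact permutation p under vehicle was 0.114. The remaining members did not pass. Ctsc, the dipeptidyl peptidase that activates granule proteases, had a log2 fold change of 0.38 ± 0.15 (SE, adjusted p = 0.309). Lgmn, the asparaginyl endopeptidase, had 0.18 ± 0.07 (SE), Ctsa, the carboxypeptidase that stabilises beta-galactosidase, 0.18 ± 0.08, and Ctsb 0.16 ± 0.07. Tpp1, a tripeptidyl peptidase, had 0.04, and Ctsf, a cysteine protease, -0.06. For both the 95% interval lay within 1.5-fold in either direction.

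In the glycosidase group 3 of 9 genes were higher, 0 were lower, and the median log2 fold change was 0.18. Man2b1 (ENSMUSG00000005142.10, chr8:85083270-85098282), the lysosomal alpha-mannosidase that degrades N-linked glycans, had levels of 53.5, 51.5, 53 and 61.5 CPM in the WT vehicle mice, 44.8, 46, 48.2 and 48.1 CPM in the WT DHA mice, 65.2, 60.1, 66.5 and 66.9 CPM in the Tg2576 vehicle mice and 66.2, 62.2 and 75.7 CPM in the Tg2576 DHA mice. In this gene 6 of the 7 Tg2576 mice were above all 8 WT mice, and the remaining Tg2576 mouse (60.1 CPM) was below a single WT vehicle mouse (61.5 CPM). It was 1.31-fold higher (1.2 to 1.43, log2 fold change 0.39 ± 0.06 SE, adjusted p = 0.0201 by edgeR's quasi-likelihood test), with an exact permutation p of 0.00163. Taken by treatment, the log2 fold change was 0.24 for vehicle mice (adjusted p = 0.328) and 0.54 for DHA mice (adjusted p = 0.0739 by edgeR's quasi-likelihood test).

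Lyz2 (ENSMUSG00000069516.8, chr10:117277331-117282321), the lysozyme of macrophages and microglia, had levels of 16.2, 18.7, 12.3 and 19.7 CPM in the WT vehicle mice, 6.78, 12.3, 16.6 and 16.8 CPM in the WT DHA mice, 20.4, 34.9, 27.9 and 19.8 CPM in the Tg2576 vehicle mice and 33.3, 26.5 and 28.3 CPM in the Tg2576 DHA mice. All 7 Tg2576 mice were above all 8 WT mice, by as little as 19.8 against 19.7 CPM, a pattern shown by 2 of the 37 genes (Lyz2 and Cd68) and by 0.189% of all genes. Its level was 1.86-fold higher (1.43 to 2.42), with an adjusted p of 0.0541 by edgeR's quasi-likelihood test and an exact permutation p of 0.000816. Reads that map equally well to its close paralog Lyz1 are left out of the count, so its level is uncertain. Gusb, the beta-glucuronidase, was at 17.5, 17.5, 16.4 and 18.8 CPM in the WT vehicle mice, 15.8, 18.7, 17.1 and 16.8 CPM in the WT DHA mice, 23.6, 21.9, 22.9 and 23.2 CPM in the Tg2576 vehicle mice and 22.4, 16.3 and 19.7 CPM in the Tg2576 DHA mice. Under vehicle the groups did not overlap and the level was 1.3-fold higher (1.12 to 1.52, adjusted p = 0.198). Under DHA they overlapped and the level was 1.14-fold higher (0.966 to 1.34, adjusted p = 0.791 by edgeR's quasi-likelihood test). Over both treatments it was 1.22-fold higher (1.09 to 1.36), with an exact permutation p of 0.00408.

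The other 6 glycosidase genes did not pass. Naglu, which cleaves heparan sulfate, had a log2 fold change of 0.18 ± 0.08 (SE), Hexa, the alpha subunit of beta-hexosaminidase, 0.20 ± 0.10, Glb1, the beta-galactosidase, 0.13, and Gla, the alpha-galactosidase that degrades globotriaosylceramide, 0.09. Manba, the beta-mannosidase, had -0.08. Gaa had -0.18 ± 0.12 (SE, adjusted p = 0.59), the lowest fitted value of the 37 genes, and ranged from 379 to 589 CPM in the WT vehicle mice alone.

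None of the 7 genes of lipid and sterol handling passed over both treatments, and their median log2 fold change was 0.09. Npc2, a soluble cholesterol carrier, had a log2 fold change of 0.26 ± 0.11 (SE), Asah1, the acid ceramidase, 0.18 ± 0.08, and Gm2a, the activator of ganglioside cleavage, 0.12 ± 0.08. Ppt1, a thioesterase that removes palmitate from proteins, had 0.09, Psap 0.05 and Lipa, the lysosomal acid lipase, 0.02. For Psap, the gene of highest level, the 95% interval of the fold was 0.948 to 1.13. Npc1, the membrane transporter that moves cholesterol out of the lysosome, was at 83.9, 77.9, 68.6 and 63.8 CPM in the WT vehicle mice, 53.9, 62, 66.7 and 56.8 CPM in the WT DHA mice, 67.2, 67.3, 54.4 and 52.4 CPM in the Tg2576 vehicle mice and 55.2, 60.6 and 64 CPM in the Tg2576 DHA mice. The WT vehicle mice were the highest group and overlapped with each of the others. Its log2 fold change of genotype was -0.29 ± 0.11 (SE, adjusted p = 0.364) with vehicle and 0.003 ± 0.118 with DHA (adjusted p = 0.997 by edgeR's quasi-likelihood test).

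Of the 8 membrane proteins, 3 were higher over both treatments, 0 were lower, and the median log2 fold change was 0.27. Cd68 (ENSMUSG00000018774.13, chr11:69664213-69666153), the endolysosomal glycoprotein of macrophages and microglia, had the largest difference of the 37 genes. Its levels were 10.1, 9.43, 9.29 and 9.84 CPM in the WT vehicle mice, 6.16, 8.44, 7.86 and 9.02 CPM in the WT DHA mice, 10.8, 16.3, 20.5 and 22.2 CPM in the Tg2576 vehicle mice and 18, 12.8 and 21 CPM in the Tg2576 DHA mice. All Tg2576 mice were above all WT mice, and Tg2576 vehicle mouse 1 (10.8 CPM) lay close to the highest WT mouse (10.1 CPM). The level was 1.99-fold higher (1.61 to 2.45, log2 fold change 0.99 ± 0.14 SE, adjusted p = 0.00884 by edgeR's quasi-likelihood test), with an exact permutation p of 0.000816. It was 1.8-fold higher under vehicle (1.36 to 2.4) and 2.19-fold higher under DHA (1.61 to 2.97). Without Tg2576 DHA mouse 3 its adjusted p was 0.0519 and 0 of the 37 genes had an adjusted p under 0.05.

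Laptm5, a lysosomal transmembrane protein of haematopoietic cells and microglia, was at 32, 34.4, 41.6 and 41.3 CPM in the WT vehicle mice, 36.8, 31.2, 41.3 and 43.5 CPM in the WT DHA mice, 39.3, 56.2, 77.8 and 56.8 CPM in the Tg2576 vehicle mice and 50, 48.6 and 68.8 CPM in the Tg2576 DHA mice. Under vehicle only Tg2576 mouse 1 lay within the WT range, and under DHA the groups did not overlap. It was 1.5-fold higher over both treatments (1.25 to 1.81, adjusted p = 0.0739 by edgeR's quasi-likelihood test, exact permutation p = 0.00245). Lamp2, which lines the lysosome and serves chaperone-mediated autophagy, was at 55.6, 40.8, 44.7 and 48.6 CPM in the WT vehicle mice, 40.5, 42.4, 48.8 and 32.8 CPM in the WT DHA mice, 54.4, 70.4, 53.3 and 38.3 CPM in the Tg2576 vehicle mice and 57.6, 64.3 and 71.8 CPM in the Tg2576 DHA mice. The groups overlapped under vehicle (1.14-fold, 0.908 to 1.43) and not under DHA (1.57-fold, 1.23 to 2.0), and the exact permutation p over both treatments was 0.0196. With the choroid plexus covariate its log2 fold change over both treatments moved from 0.42 to 0.29 (adjusted p = 0.393 by edgeR's quasi-likelihood test), and that under DHA from 0.65 to 0.42 (adjusted p = 0.999 by the same test).

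The other 5 membrane proteins did not pass. Cd63, a tetraspanin of late endosomes, had a log2 fold change of 0.40 ± 0.14 (SE, adjusted p = 0.286) and was called in 7 of the 23 alternatives. Lamp1, whose promoter has the 4 E-boxes printed above, had 0.13 ± 0.06 (SE), and Mcoln1, a cation channel that releases lysosomal calcium, had 0.12 ± 0.07. Scarb2, the sorting receptor of beta-glucocerebrosidase, had 0.01, and Cln3, the protein lost in juvenile Batten disease, -0.01. The 95% intervals of Lamp1 (fold 1.0 to 1.19) and Scarb2 (0.923 to 1.09) lie below the lower bound for Cd68.

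**Figure D3:**
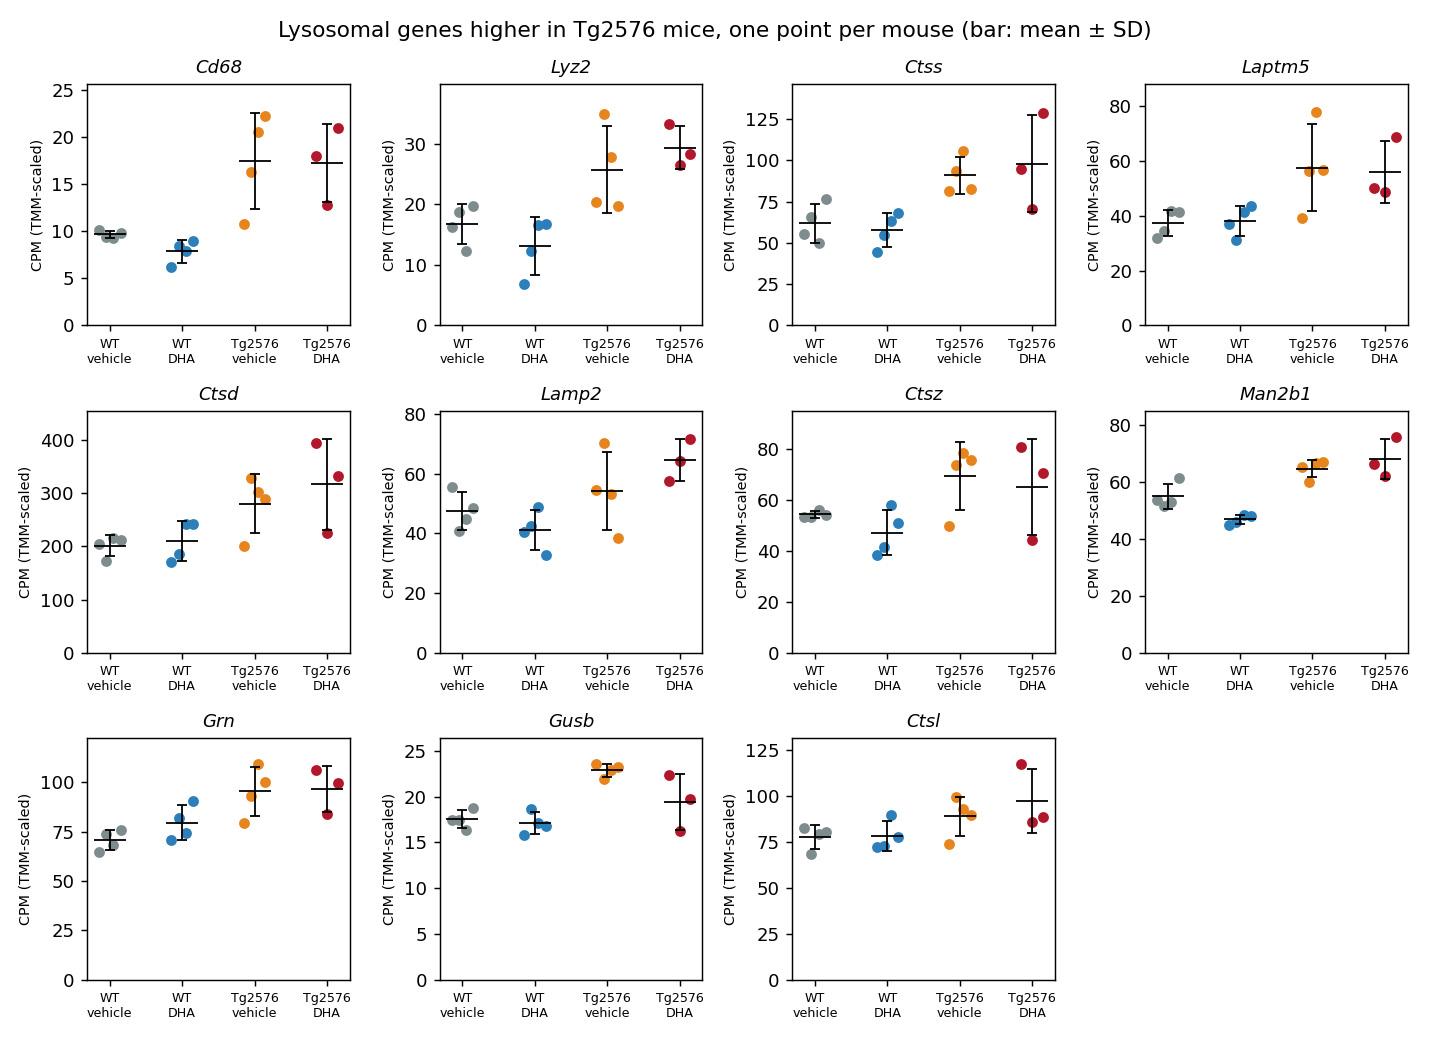
TMM-scaled CPM of the 11 genes with an unadjusted p under 0.01 over both treatments, with a point per mouse and mean ± SD per group (n = 4, 4, 4 and 3), ordered by fold change. In the Cd68 and Lyz2 panels every Tg2576 mouse is above every WT mouse (for Cd68 from 10.8 CPM against 10.1 CPM), and in the Ctsd, Laptm5 and Ctsz panels a single Tg2576 vehicle mouse lies among the WT mice.

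Grn (ENSMUSG00000034708.12, chr11:102430315-102437048) encodes progranulin, a secreted protein that is taken up into lysosomes and cut into granulins. Its levels were 64.7, 73.5, 68.3 and 75.8 CPM in the WT vehicle mice, 70.9, 81.9, 74.3 and 90.6 CPM in the WT DHA mice, 79.5, 92.8, 109 and 100 CPM in the Tg2576 vehicle mice and 106, 83.7 and 99.6 CPM in the Tg2576 DHA mice. The groups did not overlap under vehicle and overlapped under DHA. It was 1.28-fold higher over both treatments (1.14 to 1.44, adjusted p = 0.0745 by edgeR's quasi-likelihood test, exact permutation p = 0.00327). Tfeb, the transcription factor of the lysosomal gene programme, was at 12.6, 14, 16.2 and 14.4 CPM in the WT vehicle mice, 12.9, 13.7, 14.1 and 16.7 CPM in the WT DHA mice, 15.3, 13.8, 16.2 and 18.1 CPM in the Tg2576 vehicle mice and 13.7, 10.4 and 13.2 CPM in the Tg2576 DHA mice. WT mice lay between 12.6 and 16.7 CPM, within the range of the Tg2576 mice (10.4 to 18.1 CPM), and the log2 fold change of genotype over both treatments was -0.03 ± 0.09 (SE, adjusted p = 0.951 by edgeR's quasi-likelihood test). Of the 12 genes whose promoter window held CACGTG, the element that Tfeb binds, 2 were among the 11 called (Ctsd and Ctsl, median log2 fold change 0.13). Of the 21 genes whose window did not, 9 were (median 0.28). Of the 4 with GAGGAAGT, 2 were called (Ctss and Gusb), and of the 29 without it 9 were. Of the 5 with TCACGTGA, 1 was called (Ctsd), and of the 28 without it 10 were. These counts are descriptive, and the activity of Tfeb was not measured. The called genes without CACGTG include Ctss, Lyz2, Laptm5 and Cd68, which are named above as known from microglia.

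Other genes of the lysosomal system were taken from lists chosen with earlier results of these data known. Over all tested genes 1.94% were higher and 1.91% lower over both treatments. The shares were 1.16% and 1.93% under vehicle and 1.06% and 0.686% under DHA, and 0.829% passed for the interaction. A list with only 1 or 2 calls is therefore not read as a result about that list. Of 26 other lysosomal hydrolases 3 were higher over both treatments and 0 lower, with a median log2 fold change of 0.06. Among them were Dnase2a, an acid nuclease (0.39), and Ctso, a cysteine cathepsin (0.31). Aga was called higher under DHA (0.82). Of 18 V-ATPase subunits tested, the pump that acidifies the lysosome, 1 was higher (Atp6v0e, 0.25) and the median was 0.04. Of 18 other lysosomal membrane proteins 2 were higher, Slc11a1, a metal transporter of phagocytes (0.66), and Laptm4a (0.22). Ctns (0.36) and Slc11a1 (0.76) were called higher under vehicle, and Cd164 (0.51) under DHA. Of 20 genes that sort cargo to the lysosome 0 were higher and 2 lower, namely Sorl1, a sorting receptor that binds APP (-0.27 ± 0.09 SE), and Ap3b1, an adaptor subunit (-0.16). Under vehicle 3 of the 20 were lower, namely Sorl1 (-0.43), Ap3b1 (-0.32) and Sort1, another sorting receptor (-0.30), and under DHA 0 were. Whether these counts differ between treatments was not tested. Ap3b1 was also called for the interaction (0.32, adjusted p = 0.845 by edgeR's quasi-likelihood test). Of 22 genes related to Tfeb and nutrient sensing 0 were higher and 1 lower (Rragd, a Rag GTPase, -0.22). Rragd was called lower under vehicle (-0.34), and 0 of the 22 passed under DHA. Of 4 cystatins, which inhibit cysteine cathepsins, Cst7 was higher by 3.21 ± 0.39 (log2 fold change ± SE, adjusted p = 0.00457 by edgeR's quasi-likelihood test) and the other 3 did not pass. Cst7 is also a marker of microglia around plaques.

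Markers of some other cells moved with the genotype over both treatments, where 1.94% of all tested genes were higher and 1.91% lower. Of 15 microglial markers 6 were higher in Tg2576 mice and 0 lower, with C1qc at 0.62, C1qa at 0.56 and Csf1r at 0.29 (log2 fold change). Under vehicle 1 of the 15 was higher (C1qc, beside 1.16% of all genes), and 3 fitted values were below 0. Under DHA 5 were higher (beside 1.06% of all genes). The summed level of the 15 markers was 419 to 535 CPM in WT vehicle, 398 to 495 in WT DHA, 441 to 719 in Tg2576 vehicle and 503 to 705 CPM in Tg2576 DHA mice. Tg2576 vehicle mouse 1 had the lowest microglial sum of the Tg2576 mice (441 CPM). Of the 11 called genes it lay among the WT mice for Ctsd, Ctsl, Ctsz, Grn, Lamp2 and Laptm5, as it did for Ctsh. It lay above every WT mouse for Ctss, Gusb, Man2b1, Lyz2 and Cd68. That mouse also had the lowest total count of all mice (17372864) and the lowest oligodendrocyte sum of its group (5590 CPM). Without that mouse 19 rather than 11 of the 37 genes were called over both treatments and 10 rather than 6 under vehicle. Of 12 plaque-associated microglial markers 6 were higher, although their sum, which Apoe dominates, overlapped between genotypes (2160 to 3100 CPM in WT, 2530 to 3120 CPM in Tg2576 mice). None of the 6 perivascular macrophage markers passed, although all 6 fitted values were above 0 (median log2 fold change 0.80, beside 0.32 for the microglial markers), and their sum was 2.69 to 5.74 CPM in WT and 3.5 to 12.4 CPM in Tg2576 mice. Of the neutrophil and monocyte markers 3 of 6 were tested, and S100a8 and Ly6c2 were higher, while Camp was at 0 in 8 mice and Retnlg in 4. Mean Ly6c2 was 0.327 CPM in WT vehicle, 1.83 in WT DHA, 2.12 in Tg2576 vehicle and 1.41 CPM in Tg2576 DHA mice. It was thus higher in Tg2576 mice under vehicle and lower under DHA. The summed level of all 6 was low, at 0.642 to 3.05 CPM in WT and 1.29 to 6.59 CPM in Tg2576 mice. The astrocyte genes Gfap (1.01) and Vim (0.83) were higher and the other 5 astrocyte markers did not pass. Of 6 hippocampal neuron markers 3 were lower (Prox1, Wfs1 and Camk2a), and of the oligodendrocyte, choroid plexus and meningeal markers 0 passed. The fitted values of all 6 choroid plexus markers (median 0.435) and all 5 meningeal markers (median 0.585) were above 0, and those of all 6 oligodendrocyte markers were below it (median -0.08). The part of these cell types in the lysosomal differences was not tested.

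**Figure D4:**
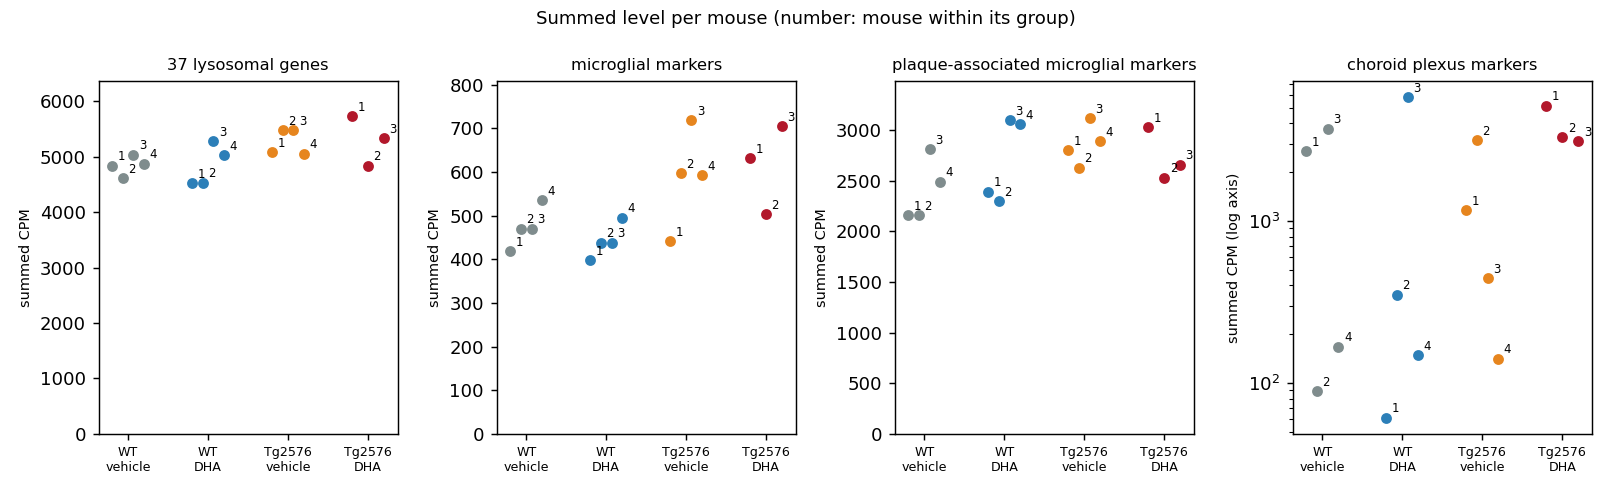
Summed TMM-scaled CPM per mouse of the 37 lysosomal genes, 15 microglial markers, 12 plaque-associated microglial markers and 6 choroid plexus markers (the last on a log axis), with points numbered by mouse within each group. The microglial sum of Tg2576 vehicle mouse 1 (441 CPM) lies within the WT range, and the choroid plexus sums of the 3 Tg2576 DHA mice lie between 3100 and 5150 CPM.

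Whether DHA changed these genes was asked in each genotype. In WT mice 0 of the 37 genes passed (background 1.38%), and 3 had a p under 0.05 (Man2b1, Npc1 and Ctsh) where 5.92% of all genes did. Man2b1 had 54.9 ± 4.5 CPM with vehicle and 46.8 ± 1.66 CPM with DHA (SD, n = 4 each), a log2 fold change of -0.23 ± 0.08 (SE, adjusted p = 0.723 by edgeR's quasi-likelihood test). Npc1 had 73.6 ± 9.02 and 59.8 ± 5.68 CPM (-0.30 ± 0.11 SE, adjusted p = 0.744 by the same test), and Ctsh had 7.29 ± 1.04 and 10.1 ± 2.62 CPM (0.47 ± 0.22 SE, adjusted p = 0.838 by the same test). DESeq2 called Man2b1 at 0.01 and limma-voom called 0. Cd68 had 9.68 ± 0.389 CPM with vehicle and 7.87 ± 1.23 CPM with DHA (-0.30 ± 0.20 SE, adjusted p = 0.873 by the same test). Among the pathway genes, Rragd (-0.27) was lower with DHA in WT mice. The median of the 37 genes was -0.02.

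In Tg2576 mice 0 of the 37 genes passed (background 0.353%), with edgeR, DESeq2 or limma-voom and with the choroid plexus covariate, and 1 had a p under 0.05 where 3.16% of all genes did. That gene was Tfeb, with 15.8 ± 1.78 CPM with vehicle (SD, n = 4) and 12.4 ± 1.79 CPM with DHA (SD, n = 3), a log2 fold change of -0.35 ± 0.14 (SE, adjusted p = 0.999 by edgeR's quasi-likelihood test). All 4 vehicle mice were above all 3 DHA mice, by as little as 13.8 against 13.7 CPM. None of the 11 genes that were higher in Tg2576 mice was called for DHA by this test. The fitted values of Gusb (-0.23), Ctsz (-0.09), Laptm5 (-0.05) and Cd68 (-0.02) were below 0, and those of the others above it. The 11 were selected with these same Tg2576 mice. Cd68 had 17.4 ± 5.07 CPM with vehicle and 17.3 ± 4.16 CPM with DHA, a fold of 0.988 with a 95% interval of 0.729 to 1.34. By qRT-PCR the study reported a significant fall of CD68 mRNA with DHA in Tg2576 mice, to about the wild-type level. It does not state whether the same mice were measured. Ctss had 90.8 ± 11.3 and 98.1 ± 29.4 CPM (fold 1.08, 0.818 to 1.43), and Lyz2 had 25.7 ± 7.12 and 29.3 ± 3.51 CPM (fold 1.14, 0.775 to 1.67). Gusb had 22.9 ± 0.742 and 19.5 ± 3.03 CPM (fold 0.85, 0.723 to 1.0), and it was called without Tg2576 DHA mouse 1. For 32 of the 37 genes in each genotype the 95% interval of the DHA effect lay within 1.5-fold in either direction, and for the other 5 the interval reached beyond that.

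The interaction of genotype and DHA passed for 0 of the 37 genes (background 0.829%), by edgeR, DESeq2 and limma-voom and with the choroid plexus covariate, which moved the median of the 37 genes from 0.045 to -0.006, and 2 had a p under 0.05 (Ctsh and Man2b1) beside 5.12% of all genes. For Man2b1 the genotype difference was larger under DHA by 0.30 ± 0.12 (log2, SE, adjusted p = 0.845 by edgeR's quasi-likelihood test). For Cd68 the difference of the 2 effects was 0.28 with a 95% interval of -0.32 to 0.88.

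**Figure D5:**
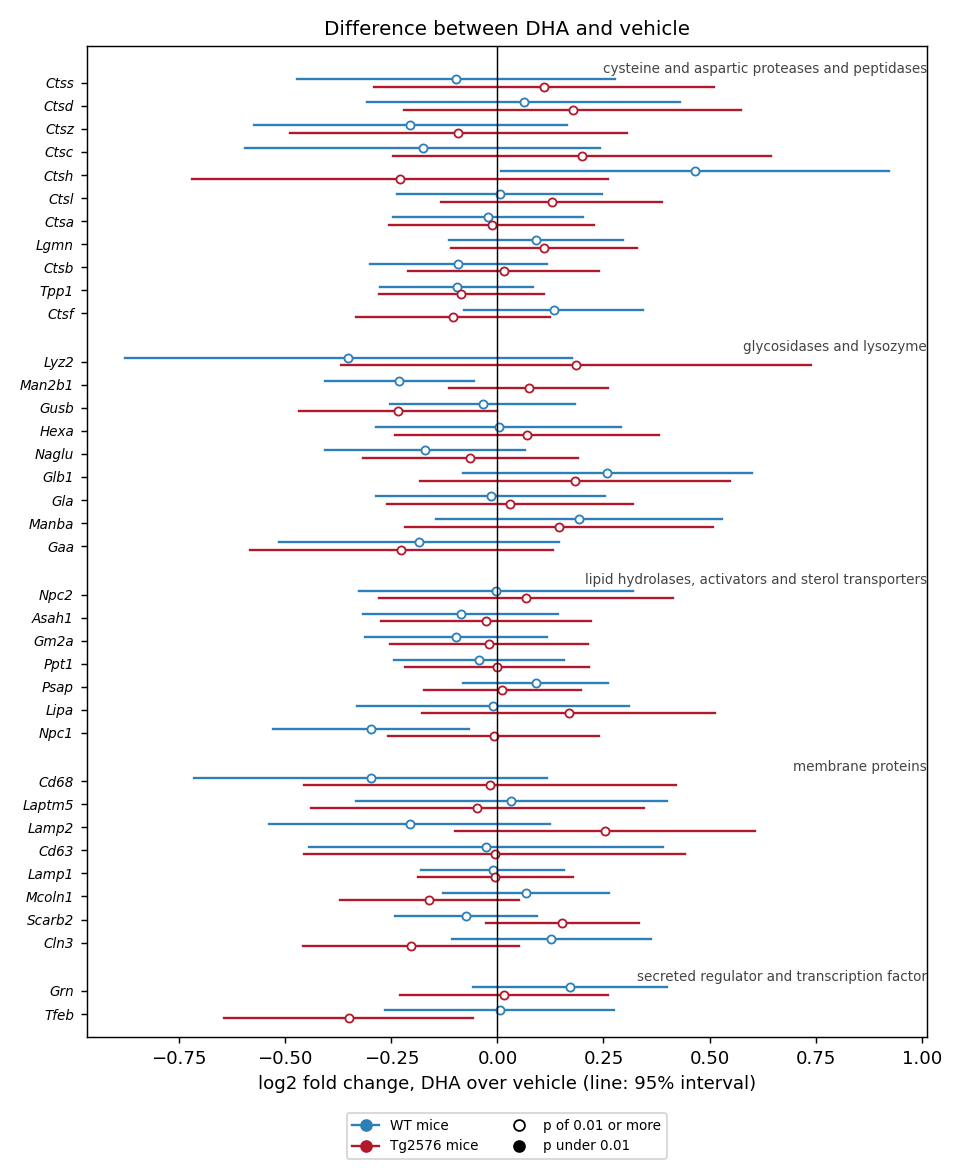
Log2 fold change of DHA over vehicle for each of the 37 genes in WT (blue) and Tg2576 mice (red), with 95% intervals, in the order of the plot of genotype effects. No point is filled, since 0 genes had an unadjusted p under 0.01, and the fitted values run from -0.35 (Lyz2) to 0.47 (Ctsh) in WT and from -0.35 (Tfeb) to 0.25 (Lamp2) in Tg2576 mice.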

How the data were processed

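Per the labels and the study's methods, hippocampal RNA of 15 mice was extracted with Trizol. For the kit, the labels name SMARTER mRNA-Seq (1.3 μg of RNA) and the methods TruSeq Stranded mRNA (1 μg). The submitters' processing notes name FastQC 0.11.8, STAR 2.6.1c, featureCounts 1.6.0 and GRCm38. The deposited values are raw counts per gene, which the authors made with featureCounts on the exons of GENCODE M25 at default options, so strand was not used and reads that map to several places or several genes were left out. Symbols came from GENCODE M21 (55141 of 55401 genes).

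The analysis used edgeR 4.0.16 in R 4.3.3. Its filter for expressed genes, filterByExpr with a minimum count of 10, kept 19536 genes. TMM factors lay between 0.961 and 1.03, and a robust quasi-likelihood model had 1 coefficient per group. The common biological coefficient of variation was 20.1%. CPM are TMM-scaled, log2 CPM used a prior count of 2, and RPKM used the exon length in the files. SE was obtained from the log2 fold change and the F statistic (ratio to the root of F). Calls were made at an unadjusted p of 0.01 and at a Benjamini-Hochberg adjusted p of 0.05 over all genes. All tests were two-sided, and exact permutation tests doubled the smaller tail. Their smallest p was 0.0286 under vehicle, 0.0571 under DHA and 0.000816 over both treatments. Comparisons share samples, since both treatments enter the genotype difference over both and each group enters several contrasts. The workflow was tested on simulated data. The members and the gene lists were chosen with earlier results of these data known.

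All 37 members are named. Other pathway genes are named when they passed and were among the 3 of lowest p in a list. Marker lists are given by their sums and leading genes. The markers named for their calls were chosen after their values were seen. The labels do not say whether mice sharing a number share a litter or day. Deviations of same-numbered mice correlated between -0.244 and 0.213, with 4 of 21 pairs over 0.1, so numbers were not taken as pairs. Alternatives were DESeq2 1.42.0, limma-voom (limma 3.58.1), no TMM factors, no filter, at least 10 counts in every mouse, only the 2 groups compared, no robust option, a replicate block, each mouse left out and, added later, a choroid plexus covariate. Figures were made in matplotlib 3.10.9 under Python 3.11.15. The values of 1 gene of the wider lysosomal lists are not reported here.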

Additional observations from a re-analysis of the deposited data

Results flagged for a closer look

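Within groups of 4 mice, 4 values lay far from the other 3 by Dixon's test at the 95% level, out of 111 groups tested, where chance gives about 1 in 20, or 5.55. Ctsa was at 102 CPM in WT vehicle mouse 2 and at 111 to 112 CPM in the others of that group. Npc2 was at 59.7 CPM in the same mouse and at 69.1 to 70.3 CPM in the others. Ctsb was at 461 CPM in Tg2576 vehicle mouse 1 and at 579 to 603 CPM in the others. Gla was at 13 CPM in WT DHA mouse 4 and at 10.9 to 11.1 CPM in the others. None of these genes was among the 11 called.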

How the results depend on the processing

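Of the 11 genes called over both treatments, 8 (Ctsd, Ctss, Gusb, Man2b1, Grn, Cd68, Laptm5 and Lyz2) were called in all 23 alternatives, and Lamp2 in 22. No called gene changed direction in any alternative. Under vehicle Gusb, Grn and Cd68, and under DHA Man2b1, Cd68 and Lyz2, were called in all 24. Leaving out 1 mouse at a time gave 9 to 19 called genes over both treatments, 3 to 10 under vehicle, 4 to 11 under DHA, and 0 to 1 for DHA in WT, DHA in Tg2576 and the interaction. Mice whose omission moved a count by over 1.5 times were Tg2576 vehicle mouse 1 (19 over both, 10 under vehicle, of which Npc1 was lower), Tg2576 vehicle mouse 3 (3 under vehicle), Tg2576 DHA mouse 3 (4 under DHA) and WT DHA mouse 3 (11 under DHA). For DHA in WT the single gene was Man2b1 (DESeq2, and without Tg2576 DHA mouse 3), Npc1 (no filter, and without WT DHA mouse 3 or WT vehicle mouse 4) or Ctsh (without WT DHA mouse 1). For the interaction it was Ctsh (without Tg2576 vehicle mouse 1 or WT DHA mouse 1) or Lamp2 (without Tg2576 vehicle mouse 2). The number of genes with an adjusted p under 0.05 over both treatments, 3 as reported, was 9 with DESeq2, 6 without TMM factors, 1 with the choroid plexus covariate and 0 to 7 without 1 mouse (7 without Tg2576 vehicle mouse 1, 0 without Tg2576 DHA mouse 3, and 1 without Tg2576 vehicle mouse 3, WT DHA mouse 1 or 2, or WT vehicle mouse 1). The covariate gave 4 genes under DHA. The cause of these shifts was not tested. When mice of the same number were fitted as a block, 11, 7 and 7 genes were called over both treatments, under vehicle and under DHA, and 0 in the other comparisons; over both treatments Ctsl was lost and Cd63 gained, and under vehicle Man2b1 was gained. The 95% interval of the interaction lay within 1.5-fold for 23 of the 37 genes and reached beyond that for the rest.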
